A study of Mus musculus with 60 samples.

Results

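The protein-coding genes of the cytosolic ribosome were examined in sorted neurons of the mouse, taken from the medial prefrontal cortex (mPFC) and from the nucleus accumbens (NAc). Members were chosen by gene symbol: Rpl or Rps followed by a number and at most one of the letters a, x or y, together with Rpsa, Rplp0, Rplp1 and Rplp2, and pseudogenes were left out. This gave 76 of 35889 annotated genes, of which 21530 are protein-coding. The large (60S) subunit holds 46 of the members and the small (40S) subunit holds 30. All 76 passed the filter on low counts in every comparison, so no member was lost before testing.

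A ribosome joins ribosomal RNA to one copy of most of these proteins, so their messenger RNAs are usually made in similar amounts. In mammals most of these transcripts begin with a run of pyrimidines after an initial cytosine, the terminal oligopyrimidine (TOP) motif, through which mTOR signaling and LARP1 set how actively they are translated and stored. In neurons some of these messages are also carried into axons and dendrites, and ribosomal protein S6 phosphorylation is widely used as a mark of neuronal activity.

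The mice carried Fos-driven inducible Cre (TRAP2) and the Ai14 tdTomato reporter, and each learned to self-administer both cocaine and sucrose before extinction and cue-induced reinstatement. Cells were sorted by NeuN, a neuronal nuclear protein, into 4 populations: cocaine-seeking (tdTomato, induced by 4-hydroxytamoxifen around the cocaine session), sucrose-seeking (cFos protein), overlapping (both labels) and non-ensemble (neither label). Each library is a pool of 3 mice of one sex, with 3 pools per sex, so that a population in a region has 6 libraries and 48 libraries were compared in all. A further set of 12 libraries labelled naive carries the same genotype label, but the labels do not explain that word and give the same treatment, so these libraries were kept apart. What the groups share limits them as models: every mouse received both rewards and tamoxifen induction, tdTomato marks cells that were active during a labeling window of hours whereas cFos marks cells active shortly before sorting, and the cFos stain was applied to dissociated cells. The sort collected events that could include debris. Replicates are pools of different mice, and the 4 populations of a pool share their animals.

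Depth and purity were checked first. Estimated counts summed to 9933361 to 24500899 per library in the 4 populations and to 29238727 to 45299753 in the naive libraries. Neuronal markers were present in every library of the 4 populations (sum of 7 genes 1673 to 6023 CPM, counts scaled to the size of the library), but so were the astrocyte markers (sum of 7 genes 1830 to 6112 CPM, led by Slc1a2), although NeuN was used for the sort. The naive libraries held 5104 to 9900 CPM of the neuronal markers. Of 7 activity-dependent genes 0 were called higher in sucrose-seeking than in non-ensemble libraries of the NAc, where Junb (-0.67) and Arc (-0.69) fell on the log2 scale, and in the mPFC Npas4 (0.74) rose and Egr1 (-0.73) fell. Fos itself was called in neither region. Several libraries stand apart from their labels. The 8 libraries of female pool 2 held 12.1 to 20.5 CPM of Y-linked Ddx3y, against at most 2.27 CPM in the other female libraries of the 4 populations. Slc17a7, the vesicular glutamate transporter of cortical excitatory neurons, was at 17.5 to 80.8 CPM in the female mPFC and at 34.0 to 40.1 CPM in male mPFC pool 2, against 267 to 657 CPM in male mPFC pools 1 and 3. All NAc libraries of the 4 populations held 128 to 592 CPM of it, so Slc17a7 did not separate the regions as labelled. For 2 male mPFC libraries of pool 3 (sucrose-seeking and overlapping) the sex field contradicts the title. They held 26.5 and 32.3 CPM of Ddx3y, within the 15.7 to 45.1 CPM of libraries titled male, so their Y-linked reads go with the title. Some results are also given without female pool 2, without these 2 libraries, or with male pools 1 and 3 only.

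Start sites of the members were read first, because most transcripts of this family are known to begin with the TOP motif. RefSeq promoters (GRCm38.p6) were matched for 56 of the 76 members, and the window from 10 bases before to 20 bases from the annotated start was searched. At least one of the motif CTTTC, the motif CTTTT and the motif CCTTT, which overlap each other, stood on the reading strand in 26.8% of the 56 windows, against 7.85% of all 32851 promoters and 8.22% of 73 promoters of nuclear oxidative phosphorylation genes. On the other strand the share was 5.36% of members and 7.65% of all promoters. A run of 8 or more C or T was present in 35.7% of members and 11.2% of all promoters. A single promoter was kept per member, whereas the other sets hold every promoter listed. Motifs and runs could lie anywhere in the window, so these are not shares of starts with the TOP motif. The windows below, with the longest pyrimidine run in capitals, show 4 members that were lower in sucrose-seeking neurons of the NAc, followed by Rpl12, Rps6 and Rps3, which were not.
Rpl38, chr11:114668570-114668599, plus strand: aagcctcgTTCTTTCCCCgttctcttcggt
Rpl13a, chr7:45128726-45128755, minus strand: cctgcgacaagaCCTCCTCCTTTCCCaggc
Rplp2, chr7:141447641-141447670, plus strand: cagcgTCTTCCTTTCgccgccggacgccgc
Rps10, chr17:27635225-27635254, minus strand: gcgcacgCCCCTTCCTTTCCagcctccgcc
Rpl12, chr2:32961702-32961731, plus strand: agcaggatccgTCTTTTCggctttcggctc
Rps6, chr4:86857348-86857377, minus strand: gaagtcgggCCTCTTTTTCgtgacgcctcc
Rps3, chr7:99483690-99483719, minus strand: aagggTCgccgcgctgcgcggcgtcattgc
A long run at the start was thus found in members that moved and in one that did not, and the values below are read without regard to it except where stated.

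As a family the members took a small share of each library, largest in non-ensemble neurons and smallest in sucrose-seeking neurons. In the NAc they held 0.816% ± 0.0837 of the counts of non-ensemble libraries (SD, n = 6, range 0.713% to 0.931%). The share was 0.676% ± 0.0880 in cocaine-seeking, 0.677% ± 0.0823 in overlapping and 0.581% ± 0.0782 in sucrose-seeking libraries (range 0.512% to 0.704%). All 6 sucrose-seeking libraries of the NAc thus lay below all 6 non-ensemble libraries. In the mPFC the shares were 0.751% ± 0.117, 0.590% ± 0.0887, 0.588% ± 0.0939 and 0.552% ± 0.128 in the same order (n = 6 each), and there the ranges overlapped. The naive libraries were highest, at 1.02% ± 0.216 in the NAc and 1.06% ± 0.174 in the mPFC. Per unit of transcript length, as TPM (transcript abundance scaled to the library), the members made up 3.30% ± 0.422 of non-ensemble and 1.94% ± 0.454 of sucrose-seeking libraries of the NAc. The ratio of large- to small-subunit counts was 1.78 to 2.22 over the 48 libraries. It was 2.00 ± 0.108 in non-ensemble and 1.85 ± 0.0552 in sucrose-seeking libraries of the NAc and lower in sucrose-seeking libraries in 6 of 6 pools, and in the mPFC it was lower in 5 of 6 pools.

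**Figure D1:**
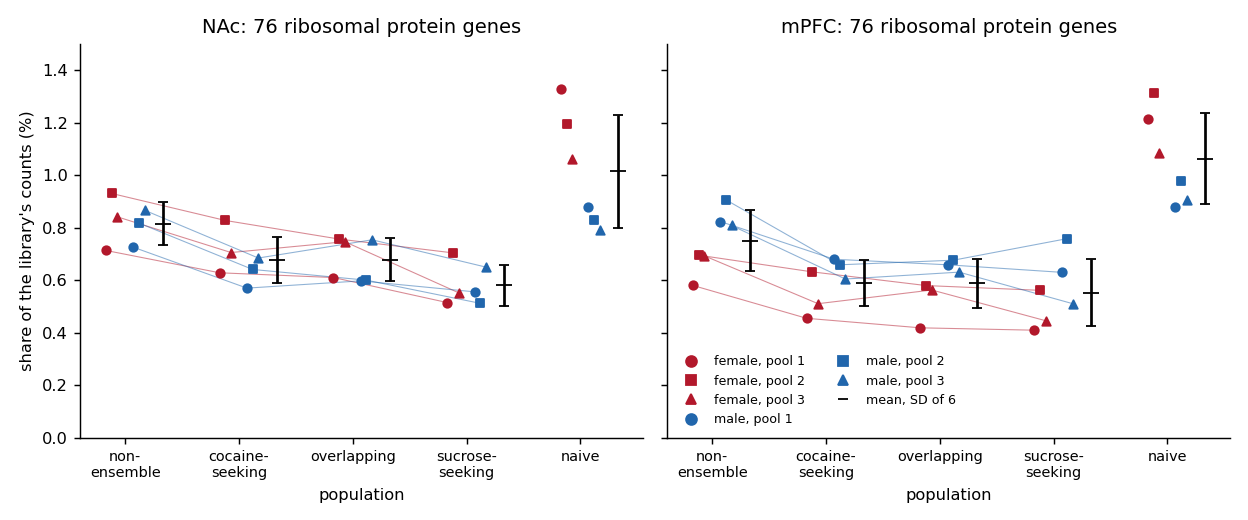
Share of a library's counts in the 76 ribosomal protein genes (y axis, percent) by population and region, with a point for each library, lines joining the libraries of a pool, and the mean with SD of 6. Non-ensemble libraries of the NAc sit between 0.713% and 0.931% and sucrose-seeking libraries between 0.512% and 0.704%, and the naive libraries are highest in both regions.

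Single members differed widely in level. On the TPM scale, averaged over the 48 libraries, the highest were Rpl13a (1088 ± 407, SD), Rplp1 (958 ± 379), Rps24 (761 ± 254), Rpl23a (737 ± 275) and Rpl41 (727 ± 239), which encodes an unusually short protein. The lowest were Rpl5 (34.1 ± 10.6), whose product carries 5S ribosomal RNA into the large subunit, Rps20 (50.1 ± 21.1) and Rpl12 (56.4 ± 19.6), whose product lies at the base of the ribosomal stalk. Many ribosomal protein genes have processed pseudogenes that share reads with them, so these levels are uncertain. Pseudogenes named after Rps23 held 69.9% of the combined reads, those of Rpl36a 57.4%, those of Rpl27 47.4%, those of Rps12 36.0% and those of Rpl28 34.4%. Matching by sequence brought the share for Rpl5 to 78.7% and that for Rpl12 to 49.7%. The log2 CPM of Rps23 (SD 0.67) and Rps6 (0.61) varied most over the 48 libraries, and that of Rps3 (0.30), Rpl35a (0.31) and Rps15a (0.32) least.

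Sucrose-seeking neurons were compared with non-ensemble neurons to ask how the cFos-positive ensemble differs from its untagged neighbors. In the NAc, 67 of 76 members fell and 1 rose (edgeR quasi-likelihood test, Benjamini-Hochberg adjusted p under 0.05), where 15.8% of all 27546 genes tested fell and 11.2% rose. The median log2 fold change of the members was -0.72, while that of all genes was 0.20 and that of protein-coding genes 0.06. Of the large subunit, 42 of 46 members fell and 1 rose, and of the small subunit 25 of 30 fell. With pools entered as a block the counts were 70 lower and 1 higher (5118 and 3946 of the genes). Without female pool 2 they were 61 lower and 1 higher, where 3451 of 28138 genes fell and 3110 rose. Within single pools the median ran from -0.89 to -0.54, and 57 members were lower in all 6 pools, against 16.9% of 23587 genes. The 6 sucrose-seeking values lay below all 6 non-ensemble values for 29 members, where 7.76% of 23587 genes did so. In bulk libraries fewer cells of a type and less RNA per cell cannot be told apart.

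All 3 proteins of the ribosomal stalk, which recruits translation factors, fell in the NAc. Rplp1 was at 231, 294 and 426 CPM (lowest, median, highest of 6) in non-ensemble libraries and at 119, 144 and 226 CPM in sucrose-seeking libraries. Its groups did not overlap, and the log2 fold change was -0.92 ± 0.18 (SE, edgeR adjusted p = 0.00052). Rplp2 went from a median of 128 to 72.6 CPM (-0.78 ± 0.15) and Rplp0 from 119 to 73.1 CPM (-0.75 ± 0.16). Among other proteins of the large subunit, Rpl38, needed in mouse embryos for translation of Hox messages, moved furthest. It was at 38.9, 51.0 and 64.9 CPM in non-ensemble and at 23.9, 25.8 and 35.6 CPM in sucrose-seeking libraries, with no overlap (-0.97 ± 0.15, edgeR adjusted p = 6.4e-05). Rpl37a, a zinc finger protein, had -0.95 ± 0.17 and Rpl41 -0.90 ± 0.13. Rpl41 ran from 163 to 224 CPM against 91.1 to 134 CPM, again without overlap. The smallest called falls were in Rps15a (-0.43 ± 0.12), Rpl22 (-0.46 ± 0.14) and Rpl34 (-0.50 ± 0.18).

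In the small subunit Rpsa, also known as the laminin receptor, was at 357, 462 and 567 CPM in non-ensemble and at 208, 232 and 345 CPM in sucrose-seeking libraries of the NAc. Every sucrose-seeking value was below every non-ensemble value (-0.85 ± 0.15, edgeR adjusted p = 0.00023). The X-linked Rps4x ran from 71.8 over 104 to 113 CPM in non-ensemble and from 40.3 over 54.9 to 70.3 CPM in sucrose-seeking libraries (-0.91 ± 0.16, adjusted p = 0.00021). Rps10, a protein near the messenger RNA entry site, was at 38.0, 70.3 and 79.6 CPM against 25.1, 32.8 and 52.0 CPM, so its groups overlapped although the fall was called (-0.87 ± 0.19).

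The member that rose in the NAc was Rpl12, at 8.80, 14.6 and 21.9 CPM in non-ensemble and 17.96, 27.6 and 41.1 CPM in sucrose-seeking libraries (0.91 ± 0.23, edgeR adjusted p = 0.0039). Its groups overlapped. Once reads of its sequence-matched pseudogenes were added, an alternative chosen after the data were seen, its value turned to -0.33. A further 8 members were not called. Rps3, which lines the messenger RNA entry channel, was at 168, 208 and 243 CPM against 169, 218 and 260 CPM (0.01 ± 0.10). Rps6, the substrate of S6 kinase, was at 109, 131 and 225 CPM against 54.0, 131 and 170 CPM (-0.27 ± 0.28), so its spread among libraries exceeded its difference. Others were Rpl5 (-0.10), Rpl10a (-0.21), Rps23 (-0.39), Rpl27 (-0.74) and Rps27a (-0.41), the last made as a fusion with ubiquitin. Rpl27 and Rps27a passed with the block of pools (adjusted p = 0.044 and 0.049).

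**Figure D2:**
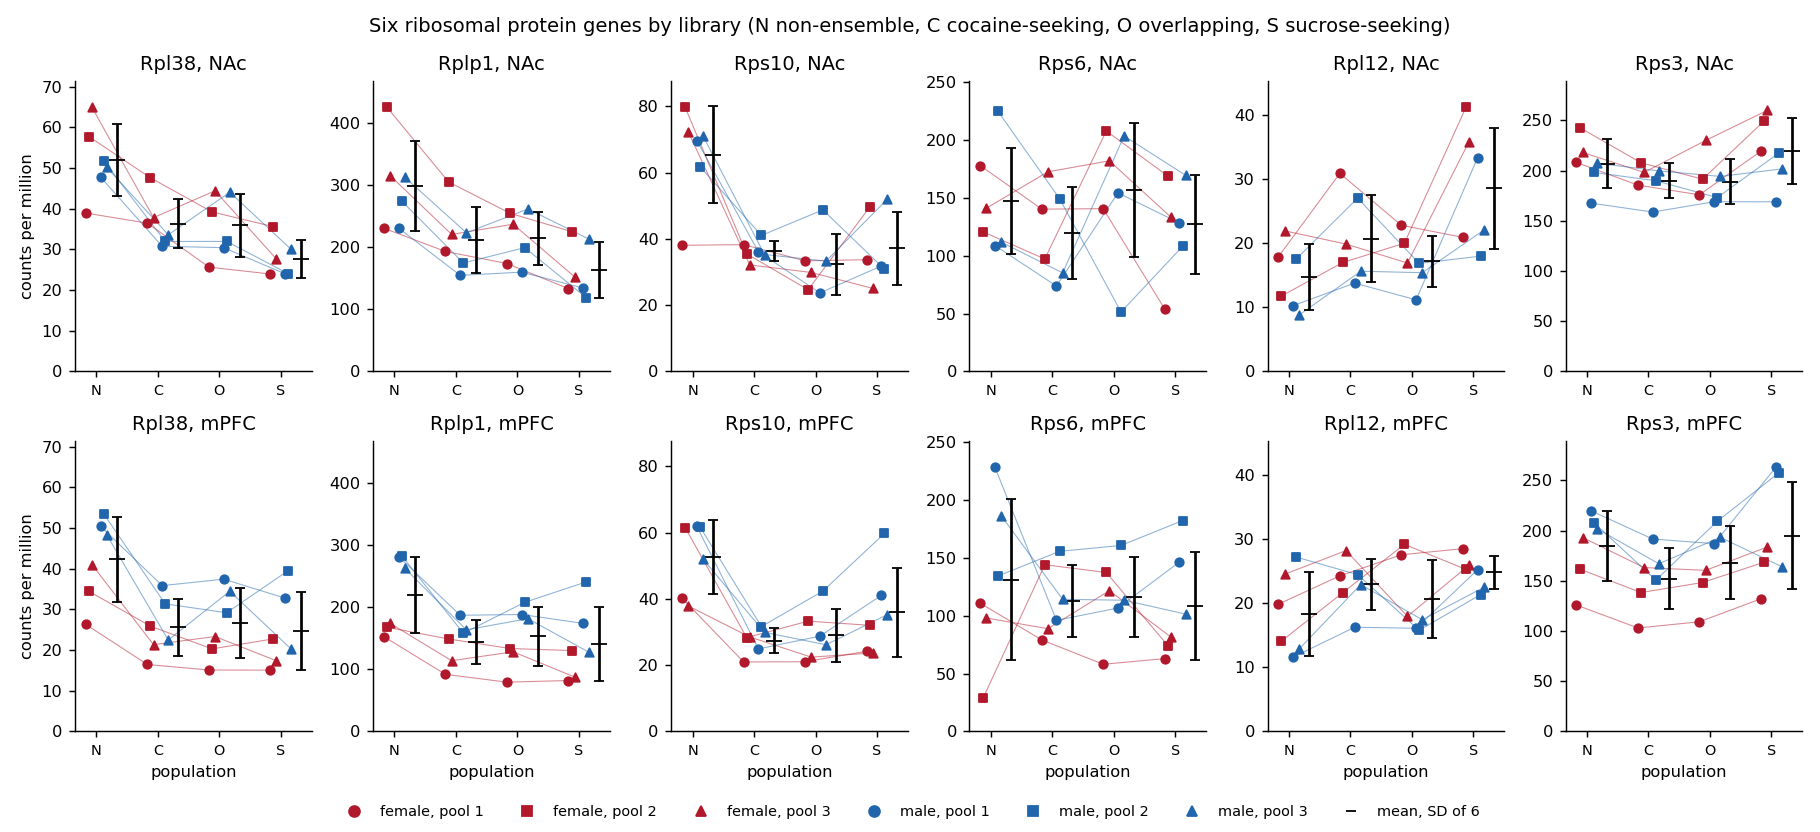
CPM (y axis, from 0) of Rpl38, Rplp1, Rps10, Rps6, Rpl12 and Rps3 in every library of the NAc (upper row) and mPFC (lower row), for non-ensemble (N), cocaine-seeking (C), overlapping (O) and sucrose-seeking (S) neurons. Points are libraries (red female, blue male, circle pool 1, square pool 2, triangle pool 3), thin lines join the libraries of a pool, and bars give the mean with SD of 6. Rpl38 and Rplp1 are lower in all sucrose-seeking than in all non-ensemble libraries of the NAc, Rpl12 is higher with overlap, and Rps3 is at a median of 208 and 218 CPM.

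In the mPFC the same comparison called 52 members lower and 0 higher, where 6.36% of 28851 genes fell and 6.61% rose. By DESeq2 65 members were lower and 0 higher, and 67 had an unadjusted edgeR p under 0.05, as had 7895 of the 28851 genes. The median of the members was -0.56 and that of all genes 0.12. All 52 are among the 67 of the NAc, which is 77.6% of the NAc list, and both lists come from the same pools of mice. Of the large subunit 34 of 46 fell and of the small subunit 18 of 30, the 3 stalk proteins included. With the block of pools 66 were lower and 1 higher, the last being Rpl12 (0.47 ± 0.18 without the block). Of the 28851 genes the block called 3817 lower and 3474 higher. Although 63 members were lower in all 6 pools, against 16.8% of genes, 0 members had groups free of overlap (0.204% of genes did). The count of lower members was 27 without the sucrose-seeking library of female pool 1, 29 without that of female pool 3, 30 without the non-ensemble library of female pool 2 and 32 without the sucrose-seeking library of male pool 3. Without both libraries whose sex field contradicts the title it was 31, and without all of female pool 2 it was 50.

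Rpl8, which lies close to the peptidyl transferase center, moved furthest in the mPFC. It was at 132, 220 and 275 CPM in non-ensemble and at 67.8, 107 and 193 CPM in sucrose-seeking libraries (-0.81 ± 0.16, edgeR adjusted p = 0.0026). The ranges overlapped, as they did for Rpl38, at 26.3, 44.6 and 53.5 CPM against 15.1, 21.5 and 39.5 CPM (-0.76 ± 0.16). Rpl19 had -0.71 ± 0.16, and small called falls were in Rpl22 (-0.44), Rps14 (-0.45) and Rpl9 (-0.46). Among the 24 members that were not called were Rps3 (0.10 ± 0.14), Rpl5 (0.08 ± 0.15), Rps12 (0.05), Rps6 (-0.20 ± 0.25) and Rpl10 (-0.26), an X-linked protein of the large subunit. Rpl10a, Rpl12, Rpl27, Rpl5, Rps23, Rps27a, Rps3 and Rps6 were among those lower by the test in neither region. The difference between the regions was tested directly: the sucrose-seeking change differed between mPFC and NAc for 0 members by edgeR (1 at an unadjusted p under 0.05, 0 by DESeq2) and for 0% of all genes.

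**Figure D3:**
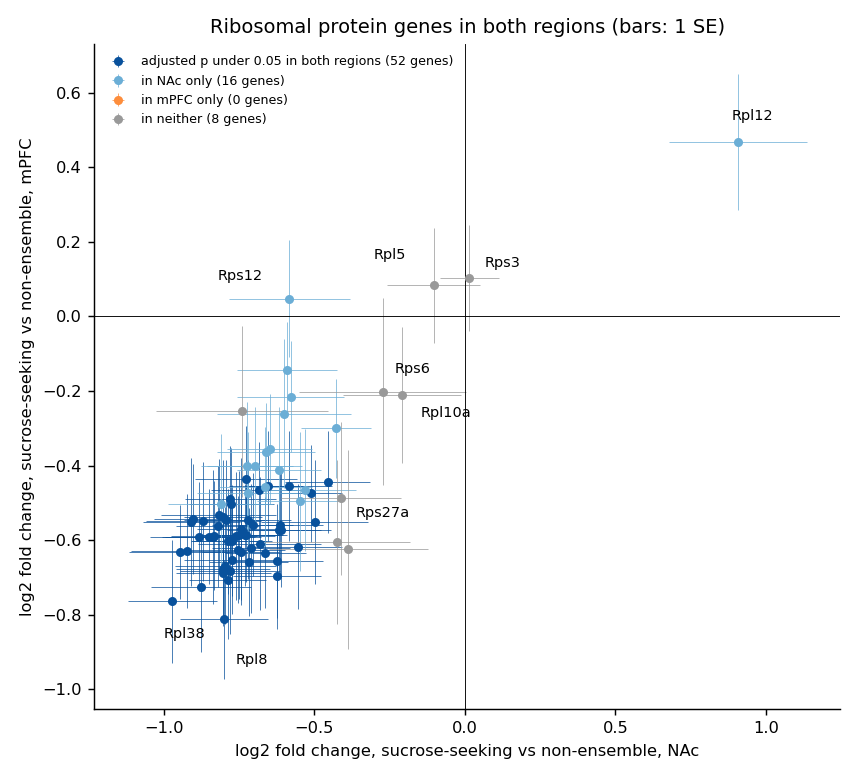
Log2 fold change of each member, sucrose-seeking against non-ensemble, in the NAc (x axis) and in the mPFC (y axis), with bars of 1 SE and points colored by the region in which the change was called. The 52 members called in both regions lie below 0 on both axes, 16 were called in the NAc alone, 8 in neither, and Rpl12 lies above 0 on both.

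Several measures of the libraries moved with the sucrose-seeking label, and their part in the fall was not tested. Pseudogenes of all kinds took 3.63% ± 0.434 of the counts of non-ensemble and 6.17% ± 1.14 of sucrose-seeking libraries of the NAc (n = 6 each, ranges 2.98% to 4.11% and 4.71% to 7.32%), and 5.46% ± 2.32 and 7.61% ± 2.49 in the mPFC. With this share as a covariate, added after the data were seen, 0 members passed in the NAc and 17 were lower and 1 higher in the mPFC, with medians of -0.21 and -0.23, and Rpl34 (0.11) and Rps20 (0.03) then lay above 0 in the NAc. Olfactory and vomeronasal receptor genes, which are not known as neuronal markers of these regions, summed to 11700 to 20230 CPM in non-ensemble and to 20920 to 35970 CPM in sucrose-seeking libraries of the NAc, and 325 of 1470 rose while 1 fell. Neuronal markers summed to 5267 to 6023 against 3355 to 4190 CPM, and 7 of 7 fell. Astrocyte markers summed to 4615 to 5965 against 2703 to 4131 CPM, and 7 of 7 fell, while endothelial markers summed to 97.3 to 156 against 113 to 316 CPM, and 6 of 7 rose. Microglial markers summed to 151 to 232 against 117 to 185 CPM, with 2 of 8 lower. In the mPFC 4 of 7 neuronal, 3 of 7 astrocyte and 2 of 8 microglial markers fell, and 3 of 7 endothelial markers rose. No marker of these lists was at 0.

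Level also went with the calls. Protein-coding genes outside the family were split into deciles by mean level, and in the highest decile 63.7% fell and 11.6% rose in the NAc, while in the lowest decile 0.196% fell and 4.35% rose. In the mPFC 30.4% of the highest decile fell. Of the 76 members 24 lie in the highest decile of the NAc, 22 in the next and 22 in the one below. By effective length, 65 members lie in the shortest decile, in which 18.2% of other genes fell. The members' share of 88.2% lower was above the share of every decile of level or length.

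**Figure D4:**
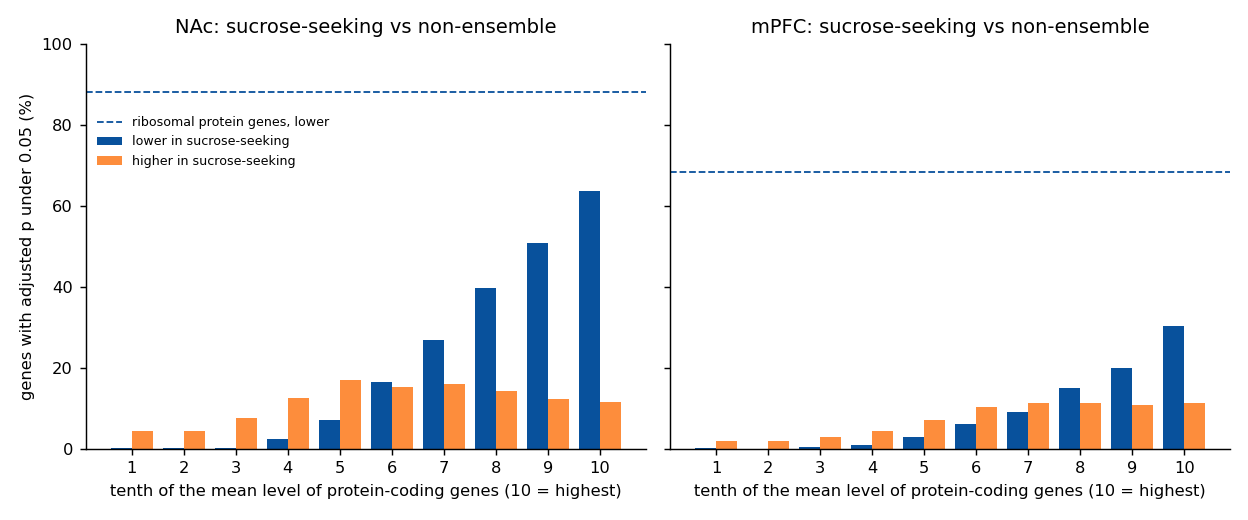
Percentage of protein-coding genes outside the family that were lower (dark) or higher (light) in sucrose-seeking than in non-ensemble libraries (y axis), by decile of mean level (x axis), in both regions. Lower calls reach 63.7% in the highest decile of the NAc and 30.4% in that of the mPFC, and the dashed line marks the members.

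Related gene lists showed where the family stands. Of the ribosomal proteins outside the symbol rule, Rps3a1 (-0.75 ± 0.15) and Fau (-1.12 ± 0.23) fell in the NAc. Other TOP messages, among them the elongation factors Eef1a1 (-0.79 ± 0.14) and Eef2 (-0.80 ± 0.12), fell for 21 of 23 genes with a median of -0.63. Nuclear genes of oxidative phosphorylation, another family of short and abundant messages, fell for 67 of 82 with a median of -0.69. Mitochondrial ribosomal proteins fell for 27 of 78 and rose for 2 (median -0.34), initiation factors fell for 38 of 64 and rose for 2 (-0.42), and ribosome biogenesis genes fell for 21 of 61 and rose for 5 (-0.12). Of 28 genes of the mTOR axis 13 fell and 2 rose (-0.27). In the mPFC the lower counts were 14 of 23 for other TOP messages, 61 of 81 for oxidative phosphorylation, 16 of 78 for mitochondrial ribosomal proteins and 19 of 64 for initiation factors. Lists and members were chosen with earlier results of these data known, and the counts of other lists show that falls were not limited to the family.

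The start sequence was set beside the calls. In the NAc 19 of the 20 members with a pyrimidine run of 8 or more fell, with a median of -0.69, and 30 of 36 with a shorter run did so, with a median of -0.72. In the mPFC the counts were 13 of 20 and 23 of 36, and neither split was tested.

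Transcript types were then counted apart, because Salmon assigns reads to single transcripts and some annotated transcripts of these genes keep an intron. Reads of retained-intron transcripts were 5.72% ± 0.867 of the members' counts in non-ensemble, 7.36% ± 1.51 in cocaine-seeking, 7.27% ± 0.878 in overlapping and 10.8% ± 2.04 in sucrose-seeking libraries of the NAc (SD, n = 6 each). Over all protein-coding genes the share went from 5.98% ± 0.677 to 10.8% ± 1.19. In the mPFC the members went from 6.93% ± 1.21 to 12.04% ± 2.20. When protein-coding and retained-intron transcripts entered 1 fit as separate features, an alternative added after the data were seen, 64 of 76 coding classes fell in the NAc (23.6% of all coding classes did), with a median of -0.80. Of 60 retained-intron classes 6 rose and 5 fell, where 29.0% of all such classes rose and 1.56% fell. In the mPFC 61 of 76 coding classes fell, against 12.7%, and 8 of 59 retained-intron classes rose, against 21.3%. Counted over annotated protein-coding transcripts alone, a further alternative added after the data were seen, Rpl13a (0.05) and Rpsa (0.04) turned above 0 in the mPFC.

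Rps3, flat as a gene, changed within itself. Its main coding transcript of 1908 bases was at a median of 82.5 CPM (range 64.7 to 110.1) in non-ensemble and 43.9 CPM (39.1 to 57.4) in sucrose-seeking libraries of the NAc, without overlap. The retained-intron transcript of Rps3 was at 82.6 CPM (40.8 to 133) and 176 CPM (119 to 208). Class by class the log2 fold changes for Rps3 were -1.27 ± 0.21 and 0.86 ± 0.18 in the NAc (edgeR adjusted p = 0.00021 and 0.0011) and -1.15 ± 0.19 and 0.76 ± 0.17 in the mPFC. Opposite directions of coding and retained-intron reads were called in the NAc also for Rps18 (-0.92 and 1.81), Rpl3 (-0.89 and 0.96), Rpl13 (-0.84 and 0.77) and Rpl10 (-0.71 and 1.07). Rpl12 had 1.27 ± 0.50 for coding reads (adjusted p = 0.067) and 0.64 ± 0.20 for retained-intron reads.

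**Figure D5:**
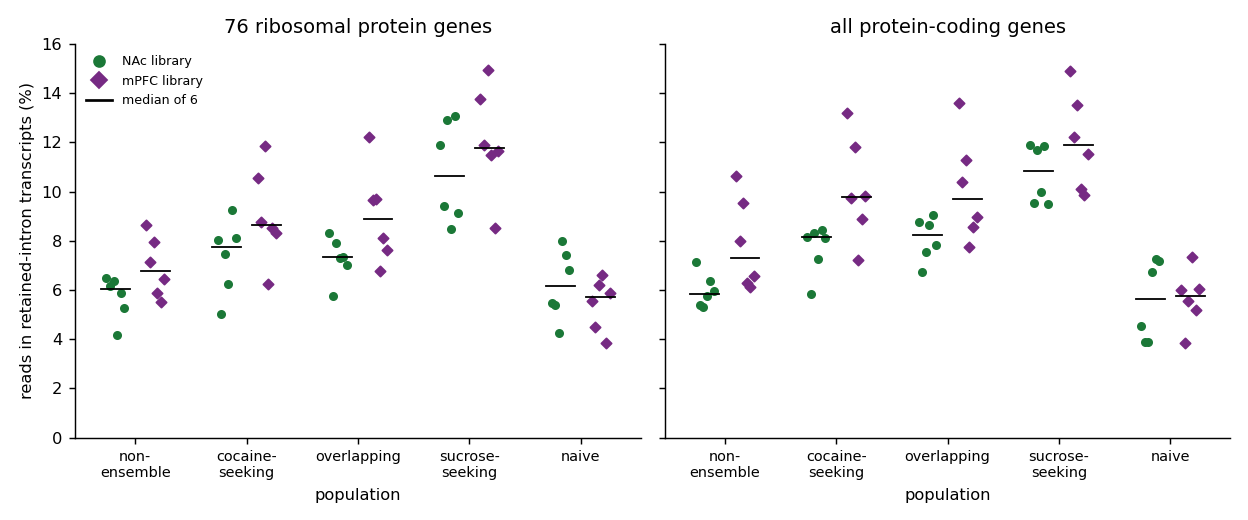
Share of reads in retained-intron transcripts (y axis, percent) in every library by population and region, for the 76 members and for all protein-coding genes. In the NAc the members average 5.72% in non-ensemble and 10.8% in sucrose-seeking libraries, and all protein-coding genes 5.98% and 10.8%.

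Cocaine-seeking neurons were compared with non-ensemble neurons in the same way. In the NAc 0 members passed by edgeR, where 0.00726% of genes fell and 0.138% rose. An unadjusted p under 0.05 was seen for 55 members, 54 of them lower, and for 4629 of all 27546 genes. DESeq2 called 23 members. The median was -0.36, against 0.08 over all genes, and 49 members were lower in all 6 pools, where 7.69% of genes were. With the block of pools, which compares populations of the same mice, 47 members fell, against 5.50% of genes, and with the block and the pseudogene share together 0 did. Closest to the threshold were Rps10 at 38.0, 70.3 and 79.6 CPM against 32.1, 35.8 and 41.0 CPM (-0.84 ± 0.19, edgeR adjusted p = 0.078, with the block 0.0048) and Rpl41 at 163, 199.9 and 224 CPM against 117, 131 and 181 CPM (-0.53 ± 0.13, adjusted p = 0.093, with the block 0.00053). Both pairs of ranges overlapped. The count thus depends on the block. It was also 9 without the non-ensemble library of female pool 1, 8 without the cocaine-seeking library of female pool 2 and 1 without the overlapping library of male pool 1. Microglial markers moved the other way, with 6 of 8 higher in cocaine-seeking libraries of the NAc and 7 of 8 in the mPFC, and their part was not tested.

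Cocaine-seeking libraries of the mPFC had 1 lower member, Rps10, where 0.00693% of genes fell and 0.0832% rose. It was at 37.9, 56.7 and 61.8 CPM in non-ensemble and at 20.9, 28.4 and 31.6 CPM in cocaine-seeking libraries, which did not overlap (-0.91 ± 0.16, edgeR adjusted p = 0.019). Non-overlap of this kind was seen in 0.0806% of genes. The count was 0 without female pool 2, without the cocaine-seeking library of male pool 1, male pool 2, female pool 1 or female pool 3, and without the non-ensemble library of female pool 2, and it was 2 without the cocaine-seeking library of female pool 2. The median of the members was -0.46, against 0.10 over all genes. An unadjusted p under 0.05 was seen for 59 members and for 5548 of 28851 genes. In all 6 pools 56 members were lower, where 12.5% of genes were. The block of pools called 58 members lower (9.40% of genes) and DESeq2 called 51. The change differed between mPFC and NAc for 0 members by edgeR, with 0 at an unadjusted p under 0.05 and 0 by DESeq2.

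Overlapping neurons, which carry both labels, were lower than non-ensemble neurons for 6 members in the NAc, where 0.839% of genes fell and 1.13% rose. Rps10 led, at 23.7, 31.6 and 48.7 CPM against 38.0, 70.3 and 79.6 CPM (-1.03 ± 0.19, edgeR adjusted p = 0.0064), with overlapping ranges. Rpl39, which lines the exit tunnel, was at 9.12, 15.8 and 17.0 CPM against 20.3, 24.3 and 29.8 CPM without overlap (-0.72 ± 0.18). Rpl37 (-0.57), Rpl17 (-0.56), Rpl23a (-0.54), a docking site of the signal recognition particle, and Rpl41 (-0.50) were the others. The median of the members was -0.40, against 0.10 over all genes. Microglial markers summed to 151 to 232 CPM in non-ensemble and to 345 to 492 CPM in overlapping libraries of the NAc without overlap, with 8 of 8 higher, and neuronal markers to 5267 to 6023 against 3959 to 5113 CPM, with 2 of 7 lower. In the mPFC 7 of 8 microglial markers were higher. Their part was not tested. The block of pools called 58 (9.57% of genes), DESeq2 39, and leaving out single libraries moved the edgeR count between 1 and 40. It was 40 without the non-ensemble library of female pool 1, 31 without the overlapping library of male pool 3, 19 without the cocaine-seeking library of female pool 2, 13 without the overlapping library of female pool 2 or the sucrose-seeking library of male pool 3, and 12 without the sucrose-seeking library of female pool 2. It was 2 without the non-ensemble library of male pool 3 or female pool 2 or the overlapping library of female pool 3, and 1 without the overlapping library of male pool 1, male pool 2 or female pool 1 or the non-ensemble library of female pool 3. How many of all genes were called in these refits is not reported here, so whether the members alone swung cannot be told. In the mPFC 3 members fell, among them Rps10 (-0.84 ± 0.16, adjusted p = 0.012) and Rps21 (-0.68 ± 0.15), where 0.166% of genes fell and 0.402% rose. The block gave 60 (8.56% of genes) and DESeq2 47, and single libraries moved the edgeR count between 0 and 7. It was 7 without the sucrose-seeking library of male pool 3, 5 without the non-ensemble library of female pool 1, and 0 without the overlapping library of male pool 3 or female pool 3 or the non-ensemble library of female pool 2. It was 1 without the non-ensemble, overlapping or sucrose-seeking library of male pool 1, the cocaine-seeking or overlapping library of male pool 2, the overlapping library of female pool 1, or the non-ensemble or sucrose-seeking library of female pool 3.

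The seeking populations were set against each other to ask whether cocaine and sucrose ensembles differ. In the NAc 4 members were higher in cocaine-seeking than in sucrose-seeking neurons, where 4.36% of genes were higher and 0.926% lower. Rpl32 was at 39.6, 50.4 and 70.5 CPM against 30.7, 36.8 and 49.4 CPM, with overlapping ranges (0.49, edgeR adjusted p = 0.029). Rpl31 (0.50), Rpl6 (0.45) and Rpl24 (0.46) were the others. The share of members called was thus near that of all genes, although their median was 0.32 against -0.01 over all genes. The block of pools called 44 higher (11% of genes) and DESeq2 17, and without female pool 2 the edgeR count was 0. It was also 0 without most single libraries, the exceptions being the non-ensemble library of male or female pool 1 (2 each), the cocaine-seeking library of male pool 2 or female pool 1 (1 each) and the sucrose-seeking library of male pool 3 (5) or female pool 2 (6). In the mPFC 0 members differed by edgeR (0.101% of genes higher, 0.315% lower), with 2 at an unadjusted p under 0.05 and 0 by DESeq2. With the block Rps3 (edgeR adjusted p = 0.0067) and Rps10 (0.046) were lower in cocaine-seeking neurons of the mPFC. The block called 947 of 28851 genes lower and 656 higher there, so the members' share was not above that of all genes.

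Overlapping against sucrose-seeking neurons gave 0 members in the NAc by edgeR (0.951% of genes higher, 0.142% lower). An unadjusted p under 0.05 was seen for 39 members and for 4141 of 27546 genes. DESeq2 called 10, and the block gave 41 higher (8.31% of genes) and 1 lower (664 of 27546 genes). Rpl27a came closest (0.47, edgeR adjusted p = 0.055), and without the sucrose-seeking library of male pool 3 the edgeR count was 1. In the mPFC the counts were 0 by edgeR, 1 at an unadjusted p under 0.05, 0 by DESeq2 and 2 with the block, Rpl8 and Rpl27a. The block called 868 of 28851 genes higher and 788 lower there, so the members' share was not above that of all genes. Cocaine-seeking and overlapping neurons differed for 0 members and 0% of genes in both regions by edgeR, with 0 at an unadjusted p under 0.05 and 0 by DESeq2 or with the block.

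Each sex was also fitted alone, with 3 pools per population. In the female NAc 51 members fell and 1 rose in sucrose-seeking against non-ensemble neurons (10.1% of genes fell, 5.78% rose), among them Rplp1 (-0.97 ± 0.24) and Rpl38 (-0.93 ± 0.22). In the male NAc 44 fell (6.57% of genes fell, 2.83% rose), led by Rpl39 (-1.02 ± 0.26), Rpl37a (-0.999 ± 0.17) and Rpl38 (-0.98 ± 0.17). Both counts rest on single libraries. The female count was 1 without the sucrose-seeking library of pool 3, 4 without that of pool 1, 6 without the non-ensemble library of pool 2 and 15 without that of pool 3. Without all libraries of pool 2 it was 54, where 2584 of 25887 genes fell. The male count was 0 without the sucrose-seeking library of pool 2 or the non-ensemble library of pool 3, 12 without the sucrose-seeking library of pool 1 or the non-ensemble library of pool 2, and 29 without the non-ensemble library of pool 1. In the mPFC edgeR called 0 members in either sex (0% of female and 0.0118% of male genes lower). An unadjusted p under 0.05 was seen for 53 members in each, and for 3862 of 27973 female and 5117 of 25409 male genes. DESeq2 called 26 and 30 members there. The block of pools called 57 and 51 lower, where 2507 of the female and 2531 of the male genes were lower. The male edgeR count there was 2 without the cocaine-seeking library of pool 1, and 0 with pools 1 and 3 only (median -0.69). In the female NAc cocaine- against sucrose-seeking neurons gave 0 members by edgeR (0.113% of genes higher, 0.25% lower) and 6 by DESeq2. Without the sucrose-seeking library of pool 2 the edgeR count was 10. An unadjusted p under 0.05 was seen for 34 members and for 3925 of 25607 genes. The block called 42 members higher, as it did 2147 of the genes. Cocaine-seeking against non-ensemble neurons of the female NAc gave 0 by edgeR (0.00781% of genes higher) and 0 by DESeq2. There 13 members had an unadjusted p under 0.05, as had 2299 of 25607 genes. The block called 12 lower, as it did 230 of the genes. Cocaine- against sucrose-seeking neurons of the male NAc gave 0 by edgeR (0.0241% of genes higher) and 0 by DESeq2 or with the block. There 8 members had an unadjusted p under 0.05, as had 1903 of 24917 genes. The difference between the sexes in the sucrose-seeking, cocaine-seeking or cocaine-against-sucrose change was called for 0 members in either region by edgeR, DESeq2 or the block. By edgeR without the block 0 to 3 members had an unadjusted p under 0.05, and at most 0.00347% of genes differed in either direction. With the block 0 to 6 members had such a p, and in the mPFC at most 5 of 28851 genes were called in either direction.

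The regions themselves were compared over the 4 populations. In the mPFC 71 members were lower than in the NAc and 0 higher (edgeR; DESeq2 called 65), where 24.2% of 29788 genes were lower and 24.3% higher. The sexes differed. Among females 74 members were lower, with a median of -0.72 against 0.43 over all genes, while 28.5% of genes were lower. Among males 0 members differed by edgeR (4.80% of genes lower), with 2 at an unadjusted p under 0.05, 0 by DESeq2 and a median of -0.01. The female minus male difference was itself called lower for 72 members, with a median of -0.73, where 22.7% of genes were lower and 15.9% higher and the median of all genes was 0.24. Rpl12, Rpl27, Rps10 and Rps12 were not called. The fit took the 4 populations of a pool as independent, although they share their mice and dissection. With 3 pools per sex, the calls between regions and between sexes thus rest on fewer independent samples than libraries. The block of pools does not remove this, because it is shared by both regions. Rpsa was at 378, 567 and 478 CPM in the non-ensemble libraries of female NAc pools 1, 2 and 3, and at 231, 266 and 268 CPM in those of the female mPFC. In males it was at 357, 447 and 485 CPM in the NAc and at 370.3, 450.2 and 379 CPM in the mPFC. The female ranges did not overlap and the male ranges did, and the log2 difference of Rpsa over the 4 populations was -0.92 ± 0.11 in females and -0.17 ± 0.11 in males. Rplp1 had like values (-1.01 ± 0.13 and -0.03 ± 0.13).

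Several libraries of this regional comparison stand apart from their labels. Female mPFC libraries had 5.91% to 11.3% of counts in pseudogenes, against 2.98% to 6.86% in the female NAc, and low Slc17a7. With the pseudogene share as a covariate 2 members were called over both sexes and 0 in females. Without female pool 2 the count over both sexes was 62, without the libraries of contradicting sex field 65, and without male pool 3 it was 37, with 4 called among the remaining males. Using only male pools 1 and 3, whose mPFC libraries hold Slc17a7 above 100 CPM, as all NAc libraries do, 0 members differed by edgeR (2.53% of genes lower), with a median of -0.10 and 58 members below 0. Dissection, sex and library quality cannot be told apart here.

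Naive libraries were compared with non-ensemble libraries last. In the NAc 59 members were higher (12% of genes were), with a median of 0.50 against -0.04 over all genes. In the mPFC 73 were higher (18.5% of genes), with a median of 0.84 against -0.14. Without all female libraries of number 2 the counts were 66 and 71, where 3563 of 28847 and 4315 of 29698 genes were higher. Rps28 was at 81.8, 91.8 and 114 CPM in naive and at 37.2, 43.1 and 62.5 CPM in non-ensemble libraries of the NAc, without overlap (0.98 ± 0.13), and Rps29 at 84.5, 107 and 142 CPM against 38.9, 55.5 and 57.8 CPM (1.01 ± 0.15). In the mPFC Rps12 was at 50.9, 77.1 and 96.9 CPM against 17.8, 27.3 and 35.6 CPM (1.47 ± 0.16) and Rpl36a, of the large subunit, at 48.2, 74.3 and 103 CPM against 19.0, 23.7 and 35.4 CPM (1.48 ± 0.18), both without overlap. Rpl12 and Rps23 were among those not called there. Cell type markers moved with this comparison. In the mPFC 6 of 7 neuronal, 5 of 7 cortical excitatory and 7 of 8 microglial markers were higher in naive libraries, and in the NAc 3 of 7, 3 of 7 and 7 of 8. In the female mPFC Slc17a7 was at 576 to 1268 CPM in naive and 26.2 to 75.6 CPM in non-ensemble libraries, and neuronal markers summed to 5320 to 9900 against 2684 to 3729 CPM. Naive libraries were deeper than all others, and depth, handling and history cannot be told apart.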

How the data were processed

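RNA of sorted cells was sequenced after low-input SMART-seq amplification. The labels call it polyA RNA, whereas the study's methods describe ribosomal RNA depletion. The labels name the nucleus accumbens core, whereas the methods describe its core and lateral shell. The authors removed adapters with CutAdapt and ran Salmon on transcripts of GRCm39. For CutAdapt and Salmon, versions: not given in the sources used here. Deposited files hold, for each transcript, the estimated counts of Salmon, which need not be whole numbers, and TPM, which the authors' Salmon run scaled by effective length and library total. The deposited effective length (in bases) was used for length scaling. Counting is not stated to use strand.

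Transcripts were joined to genes by the annotation of the reference (117209 transcripts, 116085 matched, 1124 unmatched with 2.23% to 7.1% of counts), and estimated counts were summed per gene and rounded. A call is an adjusted p under 0.05 (Benjamini-Hochberg over all genes tested) from edgeR 4.0.16 (quasi-likelihood F test, TMM, filterByExpr by group, R 4.3.3). Fits used the 24 libraries of a region, the 12 of a region and sex, 48 for regions and 30 per region with naive libraries. Their SE is the size of the log2 fold change divided by the square root of F. CPM are counts scaled to the TMM-effective library size.

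The 4 populations of a pool were sorted from the same mice, so the replicate number pairs them by design. Deviations of libraries with the same number correlated with medians of 0.0719 (male NAc), 0.131 (female NAc), 0.0924 (male mPFC) and 0.166 (female mPFC), over a range of -0.0046 to 0.336, and libraries of different numbers had medians of -0.0772 to -0.0329. Naive libraries share only a number.

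The members and lists were chosen with earlier results of these data known. Members named were the 4 highest and 4 lowest called of the main comparisons (2 and 2 of the others, or the 2 with the smallest adjusted p), the 5 highest and 3 lowest by TPM, the 3 most and 3 least variable, the 5 with the largest pseudogene share, up to 3 each way that differed between sexes or regions, and Rplp0, Rplp1, Rplp2, Rpsa, Rps6, Rps27a, Rpl10, Rpl22, Rpl38 and Rps25, 49 in all. Some members are not reported here. Members not called in the NAc are named as well, and their choice, like that of Rps4x and the members with opposite coding and retained-intron changes, followed their values. By name 306 pseudogenes belong to a member, and blastn 2.17.0+ matched 1700 by sequence (80% identity over 0.5 of the length).

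The sucrose-seeking against non-ensemble fits were tested on simulated counts with known changes and 1 spread for all genes. In the NAc 14% of log2 changes of 0.5 and 89% of those of 1 were recovered, with 3 false calls. In the female NAc the shares were 1% and 26%, with 2 false calls. The simulation changed few genes, held no effect of pools and covered this comparison alone. Its shares need not hold for the data or for other comparisons. How large a change a count of 0 members can miss was thus not measured. The results were recomputed under 12 other settings, among them DESeq2 1.42.0, and 9 chosen after seeing the data. For the DESeq2 counts the share over all genes is not reported here. Start windows come from RefSeq promoters.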

Additional observations from a re-analysis of the deposited data

Results flagged for a closer look

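Of 50 checks (5 measures in each of 10 sets of 6 libraries, a set being a population in a region) 4 found 1 value apart from the others, where chance gives about 1 in 20. The members made up 3.44% of the TPM of female NAc cocaine-seeking replicate 2, above the other 5 libraries of that population, and 5.22% of the TPM of female mPFC naive replicate 2. In male NAc cocaine-seeking replicate 1 the ratio of large- to small-subunit counts was 2.22, and in female mPFC cocaine-seeking replicate 1 pseudogenes named after members held 0.0513% of the counts.

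The difference between mPFC and NAc differed between the sexes for 72 members, by a test of that difference in one edgeR fit in which 22.7% of all genes were lower and 15.9% higher.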

How the results depend on the processing

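With the replicate block of pools, which share their mice, the members called were, in the NAc, 47 (cocaine-seeking against non-ensemble), 58 (overlapping against non-ensemble), 44 (cocaine- against sucrose-seeking) and 42 (overlapping against sucrose-seeking), and in the mPFC 58, 60, 2 and 2 in the same order. Within a sex the block gave 12 and 42 in the female NAc (cocaine-seeking against non-ensemble and against sucrose-seeking), 32, 57 and 1 in the female mPFC (cocaine-seeking and sucrose-seeking against non-ensemble, and each other) and 46 and 51 in the male mPFC (cocaine-seeking and sucrose-seeking against non-ensemble). Of all genes the block called 716 of 27973 (female mPFC) and 1234 of 25409 (male mPFC) lower for cocaine-seeking against non-ensemble. For cocaine- against sucrose-seeking in the female mPFC it called 301 genes higher. For the naive libraries, which share only a number, it gave 66 members (NAc) and 74 (mPFC). There 4380 of 28161 and 7042 of 29178 genes were higher. The block changed no other call count by more than 1.5 times.

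DESeq2 called 23, 39, 17 and 10 members in the NAc (the order of the first sentence), 51 and 47 in the mPFC, 6 for cocaine- against sucrose-seeking in the female NAc, 26 for sucrose-seeking against non-ensemble in the female mPFC, and 16 and 30 for both seeking populations in the male mPFC. DESeq2 size factors gave 11 (overlapping) and 2 (cocaine- against sucrose-seeking) in the NAc and 12 (overlapping) in the mPFC. Length-scaled counts gave medians of -1.01, -0.52, -0.58, 0.47 and 0.46 in the NAc (sucrose-seeking, cocaine-seeking and overlapping against non-ensemble, then cocaine-seeking and overlapping against sucrose-seeking) and -0.76 and -0.58 in the mPFC (sucrose-seeking, overlapping), and counts of 0 for cocaine- against sucrose-seeking in the NAc, 0, 31 and 1 in the mPFC (cocaine-seeking, sucrose-seeking, overlapping), and 12 (female NAc) and 0 (male NAc) for sucrose-seeking. Without a filter the counts were 1 and 1 in the NAc (cocaine-seeking against non-ensemble and sucrose-seeking), with 1 for mPFC overlapping neurons. With protein-coding genes alone they were 12 (overlapping) and 1 (overlapping against sucrose-seeking) in the NAc, 2 (cocaine-seeking) and 13 (overlapping) in the mPFC, 1 for cocaine- against sucrose-seeking in the female NAc, and 2 and 6 for sucrose-seeking in the female and male mPFC. At the study's thresholds (adjusted p under 0.01 and log2 change over 0.75) they were 31 (sucrose-seeking), 1 (overlapping) and 0 (cocaine- against sucrose-seeking) in the NAc, 2 (sucrose-seeking), 0 (cocaine-seeking) and 0 (overlapping) in the mPFC, 5 in the female and 0 in the male NAc, 0 between regions, 26 between female regions and 13 for naive NAc. The 31 were 30 lower and 1 higher, the 26 were lower and the 13 higher. Of all genes these thresholds called 705 lower and 841 higher of 27546 (NAc sucrose-seeking), and 129 and 313 of 28851 (mPFC sucrose-seeking). In the female NAc they called 453 lower and 258 higher of 25607. Between regions the counts were 615 and 1721 of 29788, between female regions 2158 and 5434, and for naive NAc 1093 and 350 of 28161. The ratio of summed TPM between sucrose-seeking and non-ensemble libraries of the NAc was 0.587.

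The next alternatives were chosen after the data were seen. With the pseudogene share as a covariate the NAc medians were -0.21 (sucrose-seeking), -0.14 (cocaine-seeking) and -0.12 (overlapping) against non-ensemble, and 0.0574 (cocaine-seeking) and 0.0857 (overlapping) against sucrose-seeking, and the mPFC medians were -0.23, -0.16 and -0.21 against non-ensemble. That covariate left 0 members called for sucrose-seeking and overlapping against non-ensemble and for cocaine- against sucrose-seeking (NAc), 18 (sucrose-seeking), 0 (cocaine-seeking) and 1 (overlapping) against non-ensemble and 1 for cocaine- against sucrose-seeking (mPFC), 0 in the female and the male NAc, 5 in the female mPFC, and 2 and 0 between regions (all, female). Block and covariate together called, for the NAc, 3 (sucrose-seeking, median -0.52), 0 (cocaine-seeking, -0.28) and 0 (overlapping, -0.29) against non-ensemble and 0 and 1 (cocaine-seeking, overlapping) against sucrose-seeking, and for the mPFC 7 (sucrose-seeking, -0.23), 0 (cocaine-seeking, -0.18) and 1 (overlapping, -0.20) against non-ensemble and 6 and 4 against sucrose-seeking. The 6 were 4 higher and 2 lower, where 844 of 28851 genes were higher and 1368 lower. The 4 were 3 higher and 1 lower, where 761 genes were higher and 1125 lower. The members' shares in these 2 mPFC comparisons were thus near those of all genes. Protein-coding transcripts alone gave 0 (NAc, cocaine- against sucrose-seeking), 1 (mPFC, overlapping), 29 (female NAc) and 17 (male NAc). Without female pool 2 the counts were 0 (NAc, cocaine- against sucrose-seeking) and 0 (mPFC, cocaine-seeking), and without the libraries of contradicting sex field 31 and 1 in the mPFC (sucrose-seeking, overlapping).

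Directions turned for 7 values, all sucrose-seeking against non-ensemble. Among them were Rpl12 in the NAc (-0.33) with sequence-matched pseudogenes, Rpl13a and Rpsa in the mPFC (0.05 and 0.0373) with coding transcripts alone, Rpl34 and Rps20 in the NAc (0.11 and 0.0329) with the covariate, and Rpl31 in the mPFC (0.16) with covariate and block. Of the other values of single members 3958 kept direction and side of the threshold, 114 passed it and 585 no longer passed it.

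Leaving out 1 library at a time gave counts of 61 to 69, 0 to 9, 1 to 40, 0 to 6 and 0 to 1 in the NAc (sucrose-seeking, cocaine-seeking and overlapping against non-ensemble, then cocaine-seeking and overlapping against sucrose-seeking). In the mPFC they were 27 to 61, 0 to 2 and 0 to 7. Within a sex they were 1 to 60 and 0 to 10 in the female and 0 to 51 in the male NAc, and 0 to 2 in the male mPFC. The medians with 1 library left out ran from -0.77 to -0.61, -0.45 to -0.31, -0.51 to -0.35, 0.20 to 0.37 and 0.20 to 0.37 in the NAc, and from -0.69 to -0.49, -0.57 to -0.39, -0.52 to -0.39, 0.05 to 0.25 and 0.04 to 0.22 in the mPFC. For the naive and regional fits 1 whole pool was left out at a time. The counts were then 42 to 66 and 71 to 74 for naive libraries (NAc, mPFC), and 37 to 73, 72 to 74 and 0 to 4 between regions (all, female, male). The causes were not tested. With 3 pools per population the sex-specific counts rest on few libraries, and depth differs between the naive and the other libraries.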

Other observations

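Paralogs of the members were also measured. In the sucrose-seeking against non-ensemble comparison 4 of 10 fell in the NAc and 2 of 10 in the mPFC, among them Rpl36al (-0.75 ± 0.17 and -0.66 ± 0.17). Rpl7l1 fell in the NAc (-0.49 ± 0.12). Rpl22l1, the paralog of Rpl22, was higher in naive than in non-ensemble libraries (0.88 ± 0.18 in the NAc and 0.85 ± 0.18 in the mPFC). Among TOP messages outside the ribosome proper, Rack1, a scaffold protein bound to the small subunit, fell by 0.56 and Tpt1 by 0.50 on the log2 scale in the NAc. Elongation factors fell for 6 of 14 genes and rose for 1 in each region.

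Other markers moved with the same comparison. Interneuron markers fell for 6 of 7 genes in the NAc and 3 of 7 in the mPFC, those of D1 medium spiny neurons for 2 of 6 and 0 of 6, those of D2 medium spiny neurons for 3 of 5 and 0 of 5, and those of cortical excitatory neurons for 4 of 7 and 1 of 7. Oligodendrocyte markers fell for 3 of 7 in each region and blood markers for 1 of 5 and 2 of 5. In naive against non-ensemble libraries the activity-dependent genes were higher for 3 of 7 in the NAc and 5 of 7 in the mPFC, with Fos at 0.88 ± 0.28 and 1.89 ± 0.20 and Npas4 at 1.21 ± 0.22 and 2.03 ± 0.22. The role of these measures in the members' changes was not tested.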
